A study of Mus musculus with 22 samples.

Results

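Fmr1, its paralogs Fxr1 and Fxr2, and 7 genes whose proteins bind the Fmr1 product or share its RNA granules (Cyfip1, Cyfip2, Nufip1, Caprin1, G3bp1, G3bp2 and Stau2) were followed through a ribosome pulldown of mouse striatum. The genes were chosen by symbol, and all 10 were found among the 55341 genes counted. Each was tested in every comparison. The tissue came from 6 wild-type mice (labelled WT, animals 1, 4, 12, 13, 14 and 20) and 5 FMRP mutant mice (labelled KO, animals 2, 3, 9, 10 and 11), and the labels give neither the mutant allele, the strain nor the age. Mice of both genotypes carried EGFP-tagged Rpl10a, a protein of the large ribosomal subunit, in neurons that express the dopamine receptor Drd1, and the labels do not name the promoter or line of this transgene. Each animal gave an IP library, from ribosomes precipitated through the EGFP tag, and an input library (labelled Total) from the same cleared lysate, which holds RNA of all striatal cell types. The 4 groups were therefore wild-type IP, mutant IP, wild-type input and mutant input. The series title gives the question as the change of mRNA translation in D1 neurons of Fmr1 model mice.

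FMRP, the product of Fmr1, is an RNA-binding protein that sits on polyribosomes and in neuronal RNA granules, and its loss in people causes fragile X syndrome. FXR1P and FXR2P have the same kinds of RNA-binding domains and can form complexes with FMRP. CYFIP1 and CYFIP2 bind FMRP and are also subunits of the WAVE complex, which controls actin branching under Rac1. NUFIP1 was named as a nuclear FMRP-interacting protein and takes part in box C/D snoRNP assembly, while CAPRIN1, G3BP1, G3BP2 and STAU2 are RNA-binding proteins of stress granules or dendritic transport granules.

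Since 7 of the 10 genes have a paralog in the set, an alike coding stretch of each family is shown. It lets a reader see how far reads of the family members can be told apart there. Each is the most alike gap-free stretch within a single exon of every member, in the transcript with the longest coding sequence. Stretches across exon junctions were not searched. Capitals mark bases that are the same in all members of a family at that place in the alignment. The sequences are 60 bases each, run 5′ to 3′ on the coding strand, and come from GENCODE vM21 transcripts (GRCm38/mm10). The first 3 lie within exon 5 of Fmr1 (chrX:68695489-68695548, plus strand), Fxr1 (chr3:34046437-34046496, plus strand) and Fxr2 (chr11:69641441-69641500, plus strand), and 44 of the 60 bases are shared by all of them.
Fmr1: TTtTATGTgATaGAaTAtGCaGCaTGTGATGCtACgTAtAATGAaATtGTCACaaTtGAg
Fxr1: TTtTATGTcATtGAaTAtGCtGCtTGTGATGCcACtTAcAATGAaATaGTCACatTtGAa
Fxr2: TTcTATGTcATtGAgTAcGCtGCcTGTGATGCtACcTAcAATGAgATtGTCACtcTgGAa

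The Cyfip stretch lies in exon 17 of each gene, in Cyfip1 at chr7:55899923-55899982 (plus strand) and in Cyfip2 at chr11:46254599-46254658 (minus strand), with 56 of 60 bases shared. The G3bp stretch lies in exon 2, in G3bp1 at chr11:55485644-55485703 (plus strand) and in G3bp2 at chr5:92073195-92073254 (minus strand), with 51 of 60 bases shared.
Cyfip1: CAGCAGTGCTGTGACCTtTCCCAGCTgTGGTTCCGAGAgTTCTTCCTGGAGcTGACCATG
Cyfip2: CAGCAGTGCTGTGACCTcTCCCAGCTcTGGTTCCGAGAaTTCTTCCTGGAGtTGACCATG
G3bp1: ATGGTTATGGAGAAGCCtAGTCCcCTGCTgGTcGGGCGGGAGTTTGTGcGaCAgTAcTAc
G3bp2: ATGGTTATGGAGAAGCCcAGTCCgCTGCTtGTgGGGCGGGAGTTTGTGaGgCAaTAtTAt

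Over the whole coding sequence, Fmr1 shared 66.0% of aligned bases with Fxr1 and 65.7% with Fxr2, and Fxr1 shared 69.0% with Fxr2. The identity was 77.8% between Cyfip1 and Cyfip2 and 69.1% between G3bp1 and G3bp2. The longest stretch shared in the same orientation by any transcripts of any of the 45 pairs of these genes was 24 bases. This is shorter than the 50 bases read from each end of a fragment. Matches to the opposite strand were not searched. Exons of other annotated genes covered 23.7% of the exon bases of G3bp2 (Gm26582), 12.5% of Cyfip1 (Gm44616 and Nipa2), 2.72% of Fxr1 (Dnajc19), 0.803% of Fmr1 (Gm27838) and 0.793% of G3bp1 (Mir7652), and none in the other 5 genes. The library kit did not keep the strand, so reads of overlapping genes cannot be told apart there.

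Library totals were 9375611 to 82376192 counts in IP and 25164548 to 43276230 in input, and the fewest reads of any of the 10 genes in a library were 150 (Fmr1, mutant IP). Levels are given as CPM, counts relative to library size after TMM scaling over all 22 libraries. The labelled cell type was checked with markers: in both genotypes IP over input rose for all 10 markers of D1 neurons and fell for all 6 D2 markers tested, as did all 8 astrocyte, 8 oligodendrocyte and 8 microglia markers. Cortical excitatory markers summed to 159 to 334 CPM in IP of animals 1, 12, 3 and 9 and to 70.7 to 110 CPM in the others. In input the same animals had 215 to 749 CPM and the others 147 to 174 CPM. Each comparison was therefore repeated without these 4 animals. Of the counts, mt-Rnr1 and mt-Rnr2 (ribosomal RNAs of mitochondria) held at most 0.904% in IP, 25.1% to 37.1% of wild-type input and 30.6% to 53.2% of mutant input. In such bulk samples, fewer cells of a type and less RNA per cell cannot be told apart.

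Fmr1 (chrX:68678541-68717963, plus strand) was far lower in the mutant in both assays, and it kept a measurable remainder. In wild-type IP its level ran from 70.2 CPM over a median of 84.8 CPM to 107.9 CPM, and in mutant IP it was 10.8, 11.4, 8.16, 10.4 and 9.23 CPM in animals 2, 3, 9, 10 and 11. In wild-type input it ran from 59.7 over 61.9 to 72.5 CPM, and in mutant input it was 14.2, 11.1, 13.5, 14.99 and 11.95 CPM. The highest mutant library thus lay far below the lowest wild-type library in each assay.

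The means of Fmr1 were 86.3 CPM ± 12.4 (SD, n = 6) and 9.99 CPM ± 1.29 (SD, n = 5) in IP, a log2 fold change of -3.10 ± 0.13 (SE; 95% interval -3.36 to -2.84), or 8.58-fold lower in the mutant (edgeR quasi-likelihood test, Benjamini-Hochberg adjusted p = 2.43e-11). In input they were 63.7 CPM ± 4.72 (SD, n = 6) and 13.2 CPM ± 1.60 (SD, n = 5), a log2 fold change of -2.28 ± 0.11 (SE; 95% interval -2.50 to -2.06), or 4.87-fold lower (edgeR adjusted p = 2.79e-10). Fmr1 had the smallest p of all genes tested in each comparison. The same test called 0.0553% of 14456 genes in IP and 0.0183% of 16429 in input, all of them lower in the mutant. Genes whose genotypes did not overlap, with the mutant lower, made up 0.595% in IP and 0.371% in input. The mutant libraries held 150 to 623 reads of Fmr1 in IP and 255 to 542 in input, and where along the gene they lie was not tested, since the tables hold 1 value per gene. Without animals 1, 3, 9 and 12 the log2 fold changes were -3.13 in IP and -2.18 in input.

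**Figure D1:**
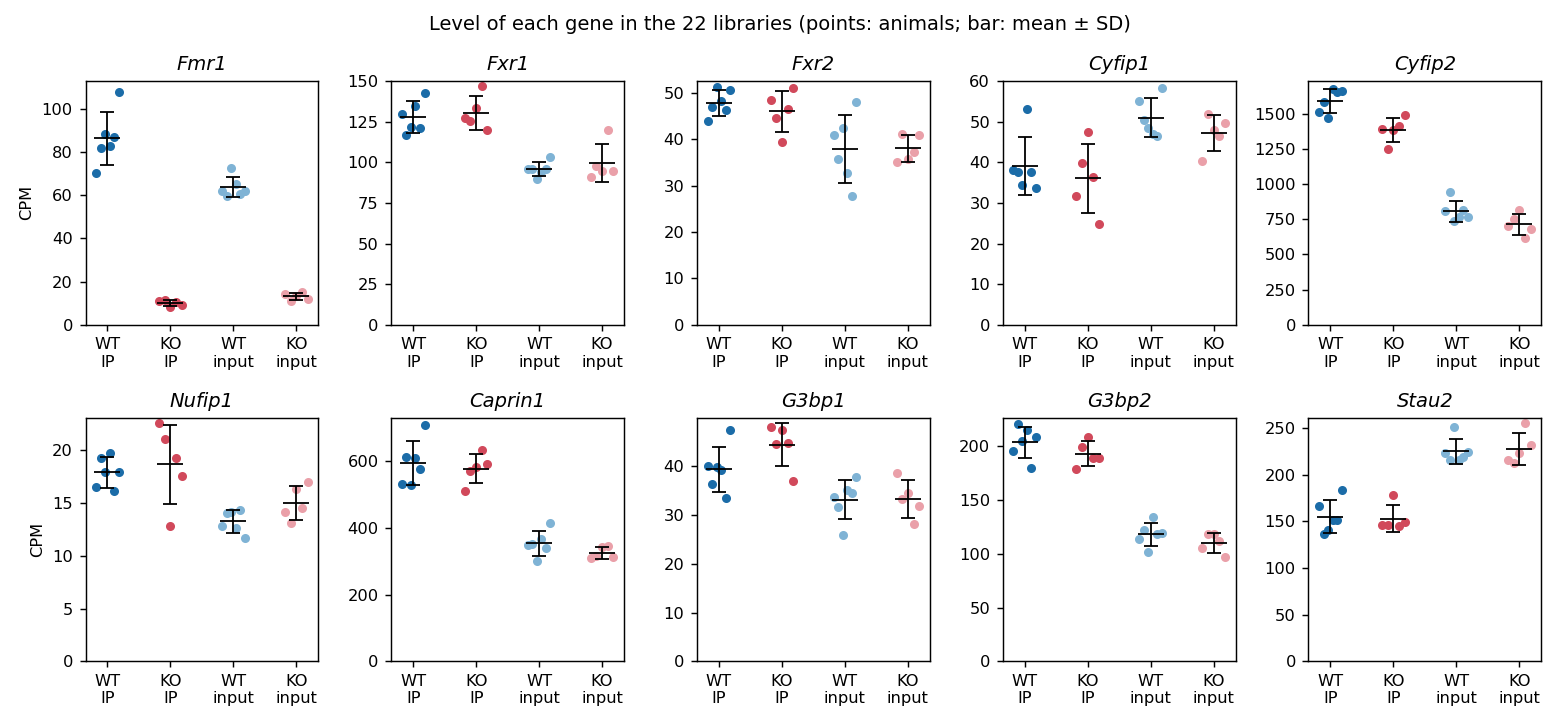
Level of each of the 10 genes in CPM (linear axis from 0, TMM scaling over 22 libraries) in wild-type IP, mutant IP, wild-type input and mutant input; points are animals (n = 6 wild type, n = 5 mutant) and bars the mean ± SD. Fmr1 is the gene whose mutant points lie apart from wild type in both assays, while for the other 9 genes the genotypes overlap within each assay.

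The position of Fmr1 between pulldown and input also differed between genotypes. Its IP over input ratio, as log2 per animal, was 0.18, 0.45, 0.29, 0.34, 0.52 and 0.80 in wild-type animals 1, 4, 12, 13, 14 and 20. It was -0.40, 0.03, -0.73, -0.52 and -0.37 in mutant animals 2, 3, 9, 10 and 11. With TMM scaling, all wild-type animals had more Fmr1 in IP than in input and 4 of 5 mutants had less. The genotypes did not overlap. Scaling by total counts without mt-Rnr1 and mt-Rnr2 shifted log2 ratios by -0.20 on average in wild type and by -0.18 in mutants. The ratios of wild-type animal 1 (0.18) and mutant animal 3 (0.03) were smaller than the shift of their genotype. Their side of 0 can therefore change with the scaling. Of 13908 genes with reads in every library, 0.18% had ratios in the mutant entirely below those in wild type, and Fmr1 was the sole gene among the 10.

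Fmr1 rose in IP over input in wild type, by 0.44 ± 0.10 (SE) on the log2 scale (edgeR adjusted p = 0.000510), and in the mutant it fell by 0.39 ± 0.11 (edgeR adjusted p = 0.00556), the latter missing the threshold with limma-voom (adjusted p = 0.0782). The test of the difference between these changes gave -0.83 ± 0.15 (SE; 95% interval -1.14 to -0.52) with an unadjusted p of 7.38e-06, the smallest of 17311 genes. It did not pass after adjustment over all genes (edgeR adjusted p = 0.128). No gene passed this test by edgeR, and 4.1% of all genes had an unadjusted p under 0.05. DESeq2 called Fmr1 here (adjusted p = 0.00520) and limma-voom did not (adjusted p = 0.9997). The edgeR adjusted p was 0.0465 without animal 1 and 0.0329 without animal 3, and reached 0.526 when other animals were left out in turn. Without the 4 animals with higher cortical markers the difference was -0.96 (edgeR adjusted p = 0.0768).

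The paralogs did not move with Fmr1. Fxr1 (chr3:34019943-34070322, plus strand) stood at 116.8 to 142.9 CPM in wild-type IP (median 125.5) and at 127.1, 125.2, 133.3, 147.1 and 120.0 CPM in mutant IP. In input it stood at 89.8 to 103.1 CPM in wild type (median 95.7) and at 90.7, 97.8, 94.5, 119.8 and 94.8 CPM in the mutant. The genotypes overlapped in both assays, and mutant animal 10, which also had the highest share of mitochondrial ribosomal RNA in input, lay apart from the other 4 mutants in input. The log2 fold change of mutant over wild type was 0.04 ± 0.07 (SE; 95% interval -0.12 to 0.19) in IP (edgeR adjusted p = 0.951) and 0.05 ± 0.08 (95% interval -0.12 to 0.22) in input (edgeR adjusted p = 0.955).

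Fxr2 (chr11:69632990-69653297, plus strand) was the lower of the paralogs. Its level was 44.0 to 51.4 CPM in wild-type IP (median 47.6) and 48.6, 44.7, 39.5, 46.5 and 51.1 CPM in mutant IP, and 27.8 to 48.2 CPM in wild-type input (median 38.3) and 35.1, 41.1, 35.8, 37.3 and 41.0 CPM in mutant input. Apart from animal 9 in IP, every mutant value lay within the wild-type range. The log2 fold change was -0.05 ± 0.09 (SE; 95% interval -0.24 to 0.14) in IP (edgeR adjusted p = 0.949) and -0.0020 ± 0.12 (95% interval -0.26 to 0.26) in input (edgeR adjusted p = 0.999), and its sign in both depended on the scaling or the animals used. The upper bounds of the 95% intervals in IP corresponded to a rise of 1.14-fold for Fxr1 and 1.10-fold for Fxr2.

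Levels per kilobase were divided by the merged exons of all annotated transcripts of a gene. This length exceeded the transcript with the longest coding sequence unequally. It was 8966 against 4199 bases for Fmr1, 6553 against 2459 for Fxr1 and 3766 against 2951 for Fxr2. It was 11941 against 6440 for Cyfip1 and 7103 against 6659 for Cyfip2. For G3bp2 it was 8659 against 3026 and for G3bp1 7064 against 6703. Ratios and ranks between genes depend on this choice of length. On this scale Fmr1 made up 22.9% ± 1.92 (SD, n = 6) of the summed level of Fmr1, Fxr1 and Fxr2 in wild-type IP. In mutant IP it made up 3.35% ± 0.414 (SD, n = 5). In input the share was 22.4% ± 1.91 (SD, n = 6) and 5.50% ± 0.730 (SD, n = 5). The wild-type share was thus alike in the pulldown and the input, and no mutant library came near it: the highest was 6.41% and the lowest wild-type share 19.5%. Fxr1 supplied 46.6% ± 2.29 of the family in wild-type IP and 59.9% ± 3.41 in mutant IP, and Fxr2 30.5% ± 1.40 and 36.8% ± 3.27. From counts without length, Fxr1 supplied 48.8% and 69.9%, and Fxr2 18.35% and 24.7%. These shares sum to 100 within a library, so the larger shares of the paralogs go with the smaller share of Fmr1.

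The summed level of Fxr1 and Fxr2 was 32.2 CPM per kilobase ± 1.85 (SD, n = 6) in wild-type IP and 32.1 ± 1.60 (SD, n = 5) in mutant IP. In input it was 24.7 ± 2.27 and 25.3 ± 1.95 CPM per kilobase. The sum of all 3 genes went from 41.9 ± 2.998 to 33.3 ± 1.64 CPM per kilobase in IP and from 31.8 ± 2.35 to 26.8 ± 1.98 in input. Fmr1 alone went from 9.63 to 1.11 CPM per kilobase in IP and from 7.10 to 1.47 in input, and the mean of the paralogs differed between genotypes by less than the SD.

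**Figure D2:**
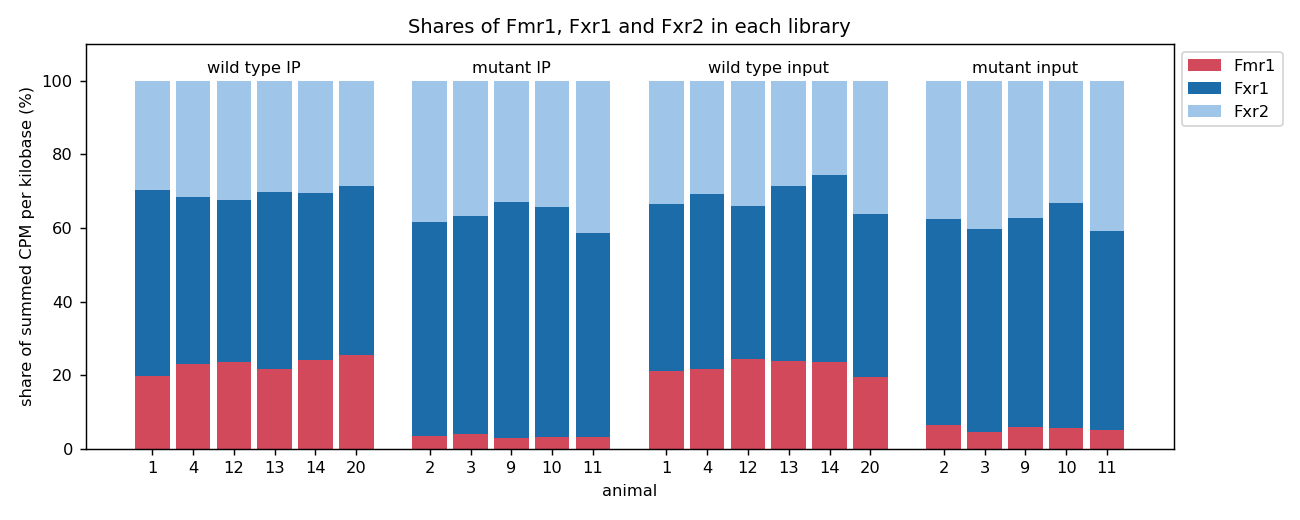
Share of Fmr1, Fxr1 and Fxr2 in their summed CPM per kilobase (percent, vertical axis) in each of the 22 libraries, by group and animal (horizontal axis). Fmr1 takes 19.5% to 25.4% in wild-type libraries and 2.87% to 6.41% in mutant libraries.

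Cyfip2 (chr11:46193850-46312859, minus strand) was the most abundant of the 10 genes per kilobase and, after Fmr1, the one with the smallest p in mutant IP. Its level was 1465 to 1678 CPM in wild-type IP (median 1616) and 1387, 1249, 1381, 1414 and 1487 CPM in mutant IP. In input it was 739.6 to 941.3 CPM in wild type (median 786.3) and 701.3, 749.2, 818.2, 616.9 and 682.8 CPM in the mutant. Of the 5 mutants, 4 lay below every wild-type library in IP and animal 11 overlapped, and in input 3 lay below every wild-type library.

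The log2 fold change of Cyfip2 was -0.19 ± 0.06 (SE; 95% interval -0.32 to -0.07) in IP, with an unadjusted p of 0.00365 that did not pass after adjustment (edgeR adjusted p = 0.388). It was -0.18 ± 0.08 (95% interval -0.36 to 0.00019) in input (edgeR adjusted p = 0.730). An unadjusted p under 0.05 was met by 7.62% of all genes in IP and 6.84% in input. The authors' deposited table gave a log2 fold change (its lfcMLE column, wild type over mutant) of 0.20 for IP, which is -0.20 as mutant over wild type, with an adjusted p of 0.133. Over 8 other settings the edgeR, DESeq2 and limma-voom adjusted p in IP ran from 0.174 to 0.431, with log2 fold changes of -0.20 to -0.19, and without animals 1, 3, 9 and 12 the value in input was -0.30 (adjusted p = 0.199).

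Cyfip1 (chr7:55841745-55932602, plus strand) was the scarcer of the pair, and in IP the more variable. It stood at 33.8 to 53.2 CPM in wild-type IP (median 37.6) and 31.6, 39.9, 47.5, 36.4 and 24.7 CPM in mutant IP. In input it stood at 46.5 to 58.3 CPM in wild type (median 49.5) and 40.2, 51.9, 47.9, 46.4 and 49.6 CPM in the mutant. The genotypes overlapped, and the coefficient of variation in IP was 18.2% for wild-type and 23.8% for mutant animals, against 5.48% and 6.23% for Cyfip2. The wild-type coefficient of Cyfip1 includes animal 13 at 53.2 CPM, which lay apart from the other wild-type animals at 33.8 to 38.0 CPM. In input the coefficients were 9.34% and 9.33% for Cyfip1 and 8.99% and 10.5% for Cyfip2. The log2 fold change was -0.11 ± 0.15 (SE; 95% interval -0.42 to 0.20) in IP and -0.11 ± 0.09 (95% interval -0.31 to 0.08) in input (edgeR adjusted p = 0.921 and 0.881). The value in IP varied with the animals used: it was -0.38 without animals 1, 3, 9 and 12 (adjusted p = 0.613) and ran from -0.0090 to -0.23 with a single animal left out (adjusted p 0.791 to 0.995).

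The 2 Cyfip genes parted between pulldown and input. Cyfip2 rose in IP over input in both genotypes on the log2 scale, in wild-type animals by 0.98 ± 0.07 (SE) and in mutants by 0.96 ± 0.08 (edgeR adjusted p = 4.94e-12 and 6.03e-11), with a ratio above 0 in all 11 animals. Cyfip1 fell in both, in wild-type animals by 0.38 ± 0.12 and in mutants by 0.39 ± 0.14 (edgeR adjusted p = 0.0122 and 0.0197), with a ratio below 0 in 5 of 6 wild-type animals and 5 of 5 mutants. Per kilobase, Cyfip2 stood at 69.7 times the level of Cyfip1 (SD 9.72, n = 6) in wild-type IP and 26.7 times (SD 3.34, n = 6) in wild-type input. In the mutant the ratios were 68.4 (SD 20.9, n = 5) and 25.6 (SD 3.24, n = 5). The size of these ratios depends on the length used. From counts without length they were 41.5 in IP and 15.9 in input for wild type, and 40.7 and 15.2 for the mutant. The pulldown thus held the pair at a ratio that was higher than in input in every animal, in both genotypes. The call for Cyfip1 in wild type was lost without animal 20 (edgeR adjusted p = 0.0849) and without the 4 animals with higher cortical markers (0.0789). The call in the mutant was lost without animal 11 (edgeR adjusted p = 0.132).

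Caprin1 (chr2:103762941-103797649, minus strand), whose protein binds both FMRP and G3BP1, ranked second of the 10 genes in IP per kilobase. It stood at 529.8 to 710.4 CPM in wild-type IP (median 593.1) and 510.8, 570.3, 583.9, 632.6 and 593.1 CPM in mutant IP. In input it stood at 302.0 to 415.9 CPM in wild type (median 350.6) and 309.8, 316.7, 342.7, 346.7 and 312.6 CPM in the mutant. The genotypes overlapped, and the log2 fold change was -0.04 ± 0.08 (SE; 95% interval -0.20 to 0.13) in IP and -0.13 ± 0.08 (95% interval -0.29 to 0.04) in input (edgeR adjusted p = 0.957 and 0.820). Between the assays Caprin1 rose in IP, in wild-type animals by 0.75 ± 0.08 and in mutants by 0.83 ± 0.08 (edgeR adjusted p = 5.21e-09 and 5.51e-09). Its ratio was tight across animals, from 0.60 to 0.81 in wild type and from 0.72 to 0.92 in the mutant.

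G3bp1 (chr11:55469685-55504838, plus strand) and G3bp2 (chr5:92052146-92083719, minus strand) encode the proteins around which stress granules form. G3bp1 stood at 33.6 to 47.3 CPM in wild-type IP (median 39.5) and 48.0, 44.7, 47.5, 44.9 and 37.0 CPM in mutant IP, and at 26.0 to 37.7 CPM in wild-type input (median 34.2) and 38.6, 33.3, 34.6, 28.1 and 31.8 CPM in mutant input. Of the 5 mutants, 4 lay above the wild-type median in IP, but the genotypes overlapped, with a log2 fold change of 0.18 ± 0.10 (SE; 95% interval -0.04 to 0.39) that did not pass the test (edgeR adjusted p = 0.746). In input the log2 fold change was 0.0035 ± 0.11 (95% interval -0.23 to 0.24; edgeR adjusted p = 0.998).

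G3bp2 stood at 180.0 to 220.2 CPM in wild-type IP (median 206.1) and 179.1, 199.4, 208.9, 189.0 and 189.0 CPM in mutant IP. In input it stood at 101.9 to 133.8 CPM in wild type (median 118.8) and 105.3, 118.3, 118.5, 111.7 and 97.2 CPM in the mutant. The genotypes overlapped, with log2 fold changes of -0.07 ± 0.07 (SE; 95% interval -0.22 to 0.07) in IP and -0.10 ± 0.08 (95% interval -0.28 to 0.07) in input (edgeR adjusted p = 0.884 and 0.875). G3bp2 rose in IP over input, in wild-type animals by 0.79 ± 0.07 and in mutants by 0.81 ± 0.08 (edgeR adjusted p = 5.30e-10 and 2.12e-09).

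G3bp1 rose less, in wild-type animals by 0.25 ± 0.10 and in mutants by 0.42 ± 0.11 (edgeR adjusted p = 0.0403 and 0.00269), and its difference between genotypes was 0.17 ± 0.15 (95% interval -0.14 to 0.47; edgeR adjusted p = 1.00). The wild-type call of G3bp1 was not robust: it was lost in 5 of 8 other settings and without each of animals 1, 4, 12, 13 and 20 (adjusted p up to 0.147). Without the 4 animals with higher cortical markers the edgeR adjusted p was 0.297. Per kilobase, G3bp2 stood at 4.25 times the level of G3bp1 (SD 0.456, n = 6) in wild-type IP, 3.57 times (SD 0.404, n = 5) in mutant IP, 2.93 times (SD 0.258, n = 6) in wild-type input and 2.73 times (SD 0.390, n = 5) in mutant input. In each of the 11 animals the ratio was higher in IP than in the input of the same lysate.

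Stau2 (chr1:16228674-16520112, minus strand), a double-stranded RNA-binding protein of dendritic RNA granules, was lower in IP than in input in every animal. It stood at 136.5 to 183.6 CPM in wild-type IP (median 151.3) and 145.8, 146.3, 178.6, 144.5 and 148.8 CPM in mutant IP, against 215.4 to 251.5 CPM in wild-type input (median 220.9) and 215.7, 212.0, 223.0, 255.0 and 231.8 CPM in mutant input. On the log2 scale it fell in IP over input, in wild-type animals by 0.54 ± 0.07 and in mutants by 0.57 ± 0.08 (edgeR adjusted p = 9.90e-07 and 1.62e-06). The genotypes overlapped in both assays, with log2 fold changes of -0.01 ± 0.08 (95% interval -0.19 to 0.16) in IP and 0.01 ± 0.08 (95% interval -0.15 to 0.17) in input (edgeR adjusted p = 0.984 and 0.988).

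Nufip1 (chr14:76110891-76137379, plus strand) had the lowest CPM of the 10 genes in wild type. It stood at 16.1 to 19.7 CPM in wild-type IP (median 17.9) and 22.5, 21.0, 12.8, 19.3 and 17.5 CPM in mutant IP, and at 11.7 to 14.3 CPM in wild-type input (median 13.4) and 14.1, 13.1, 16.3, 14.5 and 17.0 CPM in mutant input. Mutant animal 9 was the lowest of all IP libraries. The log2 fold change of mutant over wild type was 0.07 ± 0.14 (95% interval -0.23 to 0.37) in IP and 0.17 ± 0.13 (95% interval -0.09 to 0.44) in input (edgeR adjusted p = 0.957 and 0.854). Nufip1 rose in IP over input in wild type by 0.43 ± 0.12 (edgeR adjusted p = 0.00439). In the mutant the value was 0.31 ± 0.13 and missed the threshold (edgeR adjusted p = 0.0553), and it passed with limma-voom (0.0455), without animal 9 (0.00600) or without animal 11 (0.0441). Over the other animals left out in turn it reached 0.263.

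Across the 10 genes, mutant against wild type thus called Fmr1 and no other, in IP and in input, by edgeR, DESeq2 and limma-voom alike. The median log2 fold change of the 10 was -0.04 in IP and -0.05 in input, beside 0.0041 and 0.0025 for all genes tested. Of the 9 partners and paralogs, the 95% interval lay below 0 for Cyfip2 in IP and included 0 for the rest. Without animals 1, 3, 9 and 12 no partner or paralog was called either, but small values moved. In IP, Cyfip1 was then at -0.38, Caprin1 at -0.11, G3bp2 at -0.14, Stau2 at -0.081, Nufip1 at 0.13 and Fxr2 at 0.028. In input, Cyfip2 was at -0.30, G3bp2 at -0.24, Stau2 at 0.100, Fxr2 at 0.066 and G3bp1 at -0.077. The widest intervals with all animals were those of Cyfip1 in IP, where the ratio of mutant to wild type spanned 0.747 to 1.145, and of Nufip1 in IP, where it spanned 0.851 to 1.29.

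**Figure D3:**
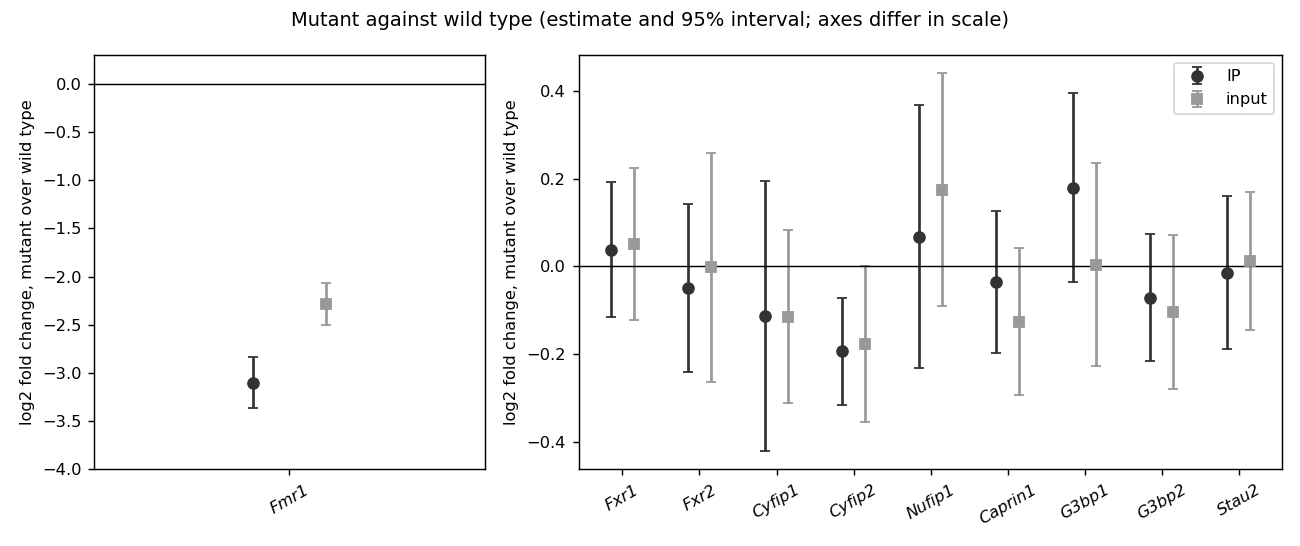
Log2 fold change of mutant over wild type (vertical axis) for Fmr1 (left) and the other 9 genes (right, on a narrower scale), in IP (black circles) and input (grey squares); bars are 95% intervals of the edgeR fit (n = 6 and 5). Fmr1 lies at -3.10 and -2.28, and the others lie between -0.19 and 0.18.

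The comparison of IP with input called more of these genes than any other. In wild type 8 rose and 2 (Cyfip1 and Stau2) fell, where 21.8% of all 17311 genes rose and 27.8% fell. In the mutant 6 rose (Fxr1, Fxr2, Cyfip2, Caprin1, G3bp1 and G3bp2) and 3 fell (Fmr1, Cyfip1 and Stau2), where 20.9% rose and 26.4% fell. The median log2 ratio of the 10 was 0.42 for wild-type and 0.35 for mutant animals, beside -0.11 for all genes in each. Fxr1 rose in wild-type animals by 0.42 ± 0.07 and in mutants by 0.39 ± 0.08 (edgeR adjusted p = 2.74e-05 and 0.000192), and Fxr2 by 0.33 ± 0.10 and 0.28 ± 0.11 (edgeR adjusted p = 0.00786 and 0.0443). The mutant call of Fxr2 was lost in 6 of 8 other settings and without each of animals 1, 2, 4, 10 and 11 (adjusted p up to 0.161).

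In wild type the ratio was above 0 in all 6 animals for 7 of the 10 genes, against 26.9% of genes with reads in every library, and below 0 in all 6 for Stau2, against 21.7%. In the mutant it was above 0 in all 5 animals for 6 genes, against 28.3%, and below 0 in all 5 for Cyfip1 and Stau2, against 23.9%. For the 9 genes other than Fmr1 the change between assays differed between genotypes by -0.12 to 0.17 on the log2 scale, and edgeR called none of them (0 also at an unadjusted p under 0.05, and 0 by DESeq2 and limma-voom). Scaling by total counts without mt-Rnr1 and mt-Rnr2 lowered every log2 ratio, on average by 0.20 in wild-type animals and by 0.18 in mutants. It turned the mean direction of none of the 10 genes. The counts of animals above or below 0 hold for TMM scaling. Some single ratios were smaller than the average shift, such as Fxr2 at 0.076 in wild-type animal 20 and 0.12 in mutant animal 3.

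**Figure D4:**
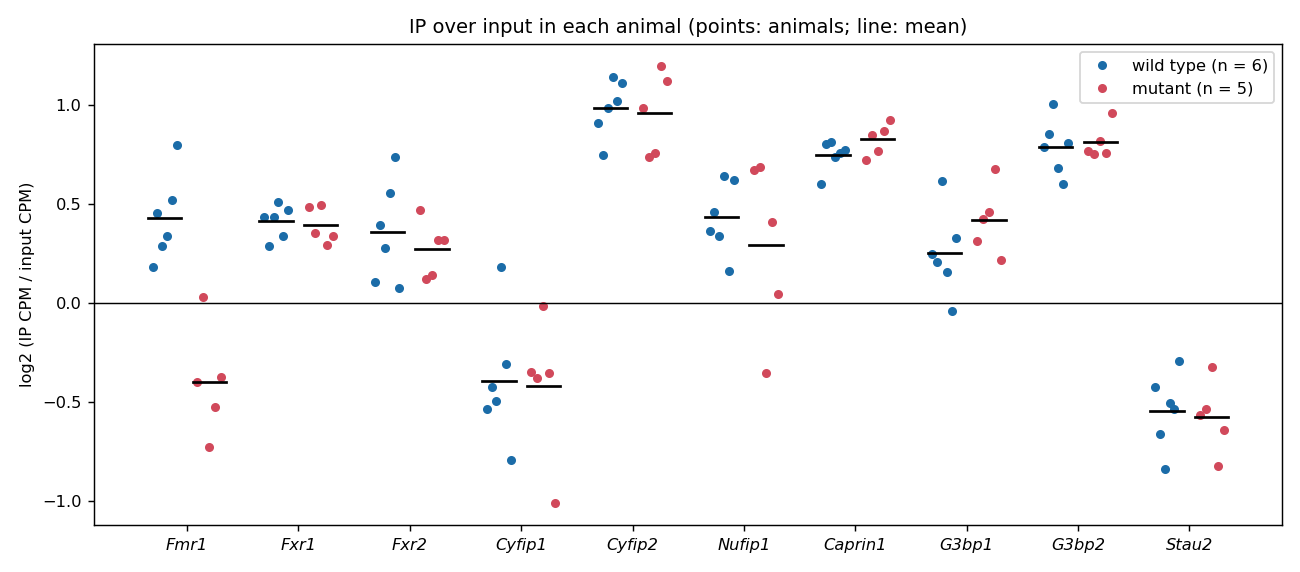
Log2 of IP CPM over input CPM of the same animal (vertical axis) for each gene in wild type (blue, n = 6) and mutant (red, n = 5); points are animals and lines the mean. Fmr1 is at 0.18 to 0.80 in wild type and -0.73 to 0.03 in the mutant, and the genotypes overlap for the other 9 genes.

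Ordered by CPM per kilobase in wild-type IP, the genes ran from Cyfip2 (223.9 ± 12.3, SD, n = 6) over Caprin1 (58.2 ± 6.54), G3bp2 (23.5 ± 1.66), Stau2 (23.0 ± 2.58), Fxr1 (19.5 ± 1.501), Fxr2 (12.7 ± 0.746), Fmr1 (9.63 ± 1.38), G3bp1 (5.58 ± 0.653) and Nufip1 (4.50 ± 0.363) to Cyfip1 (3.28 ± 0.597). The ranges over animals overlapped between neighbours from G3bp2 to Fxr1, between Fxr2 and Fmr1, and from G3bp1 to Cyfip1. The order within these runs is therefore not resolved. Places outside these runs hold for merged exon length and can change with the transcript length used. In wild-type input Stau2 came level with Caprin1 (33.3 ± 2.02 and 34.7 ± 3.63), and in mutant input it stood at 33.7 ± 2.54 beside 31.9 ± 1.72 for Caprin1, with overlapping ranges. In the mutant Fmr1 fell to the end of the order, with 1.11 ± 0.143 CPM per kilobase in IP and 1.47 ± 0.178 in input, and its range did not reach that of Cyfip1 in IP or Nufip1 in input. Among the 17311 genes tested over all libraries, Fmr1 went from the percentile 78.0 of the mean level per kilobase in wild-type IP to 41.2 in mutant IP, and from 73.2 to 39.4 in input. Cyfip2 held the percentile 99.6 in wild-type IP and 99.5 in mutant IP.

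Genes around the set were read from 5 further lists. For the counts below, 21.8% of all 17311 genes rose in IP over input in wild type and 27.8% fell. In the mutant 20.9% rose and 26.4% fell. Between genotypes, an unadjusted p under 0.05 by edgeR was met by 7.62% of all genes in IP and 6.84% in input. The other subunits of the WAVE complex and Rac1 showed no call in mutant against wild type by edgeR (0 of 9 tested in IP and 0 of 10 in input; 1 and 3 at an unadjusted p under 0.05). Nckap1, the subunit that binds CYFIP directly, had the smallest p of the list, with -0.28 ± 0.06 (SE) in IP and -0.33 ± 0.08 in input (edgeR adjusted p = 0.176 and 0.366), and DESeq2 called it in IP. DESeq2 called no member of this list in input and limma-voom none in either assay. Between IP and input in wild type, 6 of the 10 rose and 4 fell. Wasf1, a WAVE protein, rose by 0.94 and Nckap1 by 0.71, while Wasf2 fell by 1.10 and Abi3 by 3.18. Abi3 had at most 27 reads in a wild-type IP library, and exons of other annotated genes covered 75.8% of its exon bases. In the mutant 5 genes of this list rose and 3 fell.

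Of 28 other proteins of RNA granules, edgeR, DESeq2 and limma-voom called 0 between genotypes in IP or input (5 and 0 at an unadjusted p under 0.05 by edgeR). In IP over input 17 rose and 4 fell in wild type, and 18 rose and 4 fell in the mutant. Serbp1 rose by 0.84 and Atxn2, an RNA-binding protein of stress granules, by 0.69 in wild type, while Kif5a, a kinesin that carries granules, fell by 1.21 and Elavl2 by 1.05. Of 21 tested proteins that bind or modify FMRP, the 3 tools also called 0 between genotypes in either assay (1 and 0 at an unadjusted p under 0.05 by edgeR). In IP over input 11 rose and 2 fell in wild type, and 11 and 3 in the mutant. Ago2, the Argonaute protein of microRNA silencing, rose by 0.88 and Ncl, nucleolin, by 0.71, while Llgl1 fell by 1.54 and Tdrd3 by 0.47 in wild type.

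The assembly factors and proteins of box C/D snoRNPs, the partners of NUFIP1, had 0 of 10 called between genotypes by each tool (1 in IP and 1 in input at an unadjusted p under 0.05 by edgeR). In IP over input 5 rose and 1 fell in wild type, and 4 rose in the mutant. Ruvbl1 rose by 0.72 and Nop58 by 0.58 in wild type, while Znhit3 fell by 0.51. Of 11 tested neighbours of Fmr1 on chromosome X, 0 were called between genotypes in either assay by the 3 tools (2 and 2 at an unadjusted p under 0.05 by edgeR), while Fmr1nb and Fmr1os did not pass the filter on low counts. In IP over input 3 of these neighbours rose and 4 fell in wild type, with Mamld1 at 0.56, Mtmr1 at 0.32, Mtm1 at -2.02 and Aff2 at -0.996, and 2 rose and 3 fell in the mutant.

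To find genes whose pattern over libraries was most like that of Fmr1, log2 CPM was centred on each gene's mean and the root mean square difference from Fmr1 was taken over the 11 libraries of an assay. Since Fmr1 itself separates the genotypes, closeness to it rests on the genotype contrast and is a description. In IP the 5 closest were Adamts18 (0.51), Papln (0.70), Abi3bp (0.85), Irak3 (0.86) and Gm26673 (0.88), beside a median of 1.59 over all genes. In input they were Exd1 (0.46), Cdhr1 (0.47), Abi3bp (0.47), Gm32950 (0.55) and Gm16075 (0.58), beside a median of 1.19. Abi3bp was the sole gene in both, with means of 38.2 CPM in wild-type IP and 13.4 CPM in mutant IP, and 28.3 and 10.0 CPM in input (edgeR adjusted p = 0.000163 and 1.45e-05). Adamts18 passed the test in IP (adjusted p = 0.0318) on 12 to 139 reads in wild type and 2 to 6 in the mutant, and the others did not pass. None of the 9 paralogs and partners came near, with differences from Fmr1 of 1.46 to 1.64 in IP and 1.07 to 1.23 in input.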

How the data were processed

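The authors deposited raw counts per gene for 22 libraries, made with STAR and featureCounts on mm10 per the submitters' processing notes (versions not given in the sources used here). Their deposited tables of wild type over mutant hold log2 fold changes and p-values, with DESeq2 named in the same notes, and were used only where named, with the sign turned. Genotypes were compared within the 11 libraries of each assay, and IP against input and the genotype by assay interaction in all 22, with edgeR 4.0.16 (R 4.3.3; TMM, filterByExpr, robust quasi-likelihood test, Benjamini-Hochberg adjustment over all genes at 0.05). Log2 CPM used a prior count of 2 for the profiles compared with Fmr1 and for the correlation of IP with input. The ratios per animal used no prior count. Groups came from the titles. P-values between genotypes measure the spread between these animals. For IP against input and the interaction, the main fit treats the IP and input library of an animal as independent. Scaling, filter, DESeq2 1.42.0, limma-voom (limma 3.58.1), left-out animals and the animal as a block were tried. The animal number pairs IP and input of 1 lysate per the labels, and their deviations correlated at 0.27 to 0.53 over 8292 genes in all 11 animals. Scripts were tested on simulated data. The 10 members were all named. For other lists the text names genes called between genotypes, the 2 most raised and 2 most lowered among those called in wild-type IP over input, and the 5 genes most like Fmr1. Nckap1 between genotypes was chosen after its values were seen. Members and lists were chosen with earlier results of these data known.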

Additional observations from a re-analysis of the deposited data

Results flagged for a closer look

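Of 60 groups of values examined (10 genes in 4 groups of CPM and 2 of ratios), 6 held a sample far from the rest of its group, and chance alone gives about 1 in 20. Fxr1 stood at 119.8 CPM in mutant input of animal 10, above the other 4 mutants, and this library also had the highest share of mt-Rnr1 and mt-Rnr2 (53.2%). Cyfip1 stood at 53.2 CPM in wild-type IP of animal 13, above the other 5. Cyfip2 stood at 941.3 CPM in wild-type input of animal 4, above the other 5. The log2 IP over input ratio of Caprin1 was 0.60 in wild-type animal 1, below the other 5. Stau2 stood at 178.6 CPM in mutant IP of animal 9 and at 251.5 CPM in wild-type input of animal 12, above the rest of each group. Animals 1, 9 and 12 were among the 4 with higher cortical markers, and the part of these markers in the values was not tested.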

How the results depend on the processing

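All genes called between genotypes numbered 8 in IP, and 65 with DESeq2, 4 with limma-voom, 13 with all 22 libraries in the fit and 4 to 8 with an animal left out. In input they numbered 3, and 5 without the filter, 28 with DESeq2, 6 with all 22 libraries, 7 without animals 1, 3, 9 and 12, and 2 to 7 with an animal left out (7 without animal 12). For the interaction they numbered 0, and 5 with DESeq2 and 0 to 2 with an animal left out. Among the 10 genes the interaction called 0, and 1 (Fmr1) with DESeq2 and 0 to 1 with an animal left out. The count of members called between genotypes stayed at 1 in every setting tried, and those called in IP over input were 8 to 10 of 10 with an animal left out in either genotype. With the animal as a replicate block, 9319 genes were called in IP over input in wild type and 8906 in the mutant (8585 and 8188 without it), and no member gained or lost its call. The interaction of Fmr1 was then -0.83 (adjusted p = 0.128). Values near 0 that no setting called changed sign. Fxr2 in IP was 0.028 without animals 1, 3, 9 and 12. In input it was 0.0029 with RLE factors, 0.0020 with the upper quartile, 0.0028 with DESeq2, 0.011 with limma-voom, 0.0027 with all 22 libraries and 0.066 without those animals, where G3bp1 was -0.077. The interaction was 0.0075 for Cyfip1 with the upper quartile and 0.10 for Cyfip2 without those animals. With an animal left out, mutant over wild type in IP ran from -0.012 to 0.073 for Fxr1, -0.095 to 0.0016 for Fxr2, -0.0095 to 0.18 for Nufip1, -0.073 to 0.021 for Caprin1 and -0.076 to 0.039 for Stau2. In input it ran from -0.020 to 0.083 for Fxr1, -0.078 to 0.076 for Fxr2, -0.056 to 0.062 for G3bp1 and -0.027 to 0.049 for Stau2. The interaction ran from -0.049 to 0.0039 for Fxr1, -0.12 to 0.0066 for Fxr2, -0.12 to 0.12 for Cyfip1, -0.085 to 0.026 for Cyfip2, -0.22 to 0.022 for Nufip1, -0.013 to 0.063 for G3bp2 and -0.11 to 0.024 for Stau2. From counts without length, the Fmr1 share was 32.9%, 5.36%, 32.3% and 8.75% (wild-type IP, mutant IP, wild-type input, mutant input), Cyfip2 over Cyfip1 was 41.5, 40.7, 15.9 and 15.2, and G3bp2 over G3bp1 was 5.21, 4.38, 3.59 and 3.35. Fmr1 in mutant IP over input missed the threshold with limma-voom (-0.36, adjusted p = 0.0782). Depth limits the scarcest values: at the fewest reads, Fmr1 in a mutant IP library, the counting error was 8.17%.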
